A study of Mus musculus with 17 samples.

Results

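Chromatin accessibility was examined at 8 genes of estrogen, progesterone, oxytocin and prolactin signalling: Esr1, Esr2, Gper1, Pgr, Greb1, Cyp19a1, Oxtr and Prlr. A gene's regions were the merged ATAC-seq peaks of all 17 libraries that overlapped its GENCODE gene body in the mouse genome build mm10, extended by 10 kb on each side. Peaks sharing at least 1 bp were merged into 281189 regions, and the 147420 regions called in at least 2 libraries of 1 group were kept. The 8 genes held 67 merged regions, of which 50 were kept and 17 were not.

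In ATAC-seq a transposase cuts accessible DNA and leaves adapters there, so that peaks of reads mark open chromatin. The nuclei came from the bilateral nucleus accumbens of C57BL/6 mice (C57BL/6J in the study's methods) aged 52 to 54 days and were sorted for NeuN, a protein of neuronal nuclei. Cocaine groups received 10 mg/kg cocaine (i.p.) and were killed 1 hour later, whereas control groups received no cocaine, so that injection and drug cannot be told apart. Libraries numbered 3 each for diestrus controls, diestrus females given cocaine, proestrus controls, proestrus females given cocaine and control males, and 2 for males given cocaine. Each library was made from the tissue of 3 pooled animals, and p-values therefore describe the spread between pools.

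Estradiol acts in neurons through the nuclear receptors ERα and ERβ, which bind DNA at estrogen response elements, and through a membrane receptor coupled to G proteins. Liganded ERα is known to induce the progesterone receptor and the growth regulator Greb1, and estradiol also raises oxytocin receptor expression in several tissues. Diestrus is the low-estrogen, high-progesterone stage of the cycle and proestrus the high-estrogen stage. The nucleus accumbens is a reward region made up mainly of medium spiny neurons, in which membrane actions of estradiol are well known.

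The libraries held 75458 to 157005 peaks each, with the fewest in the 2 libraries of males given cocaine. Background pileup ranged from 6.26 to 9.55 reads, and the weakest called summits from 15 to 20 reads, a fold enrichment of 1.97 to 2.21 over background. A region with no peak is one not called at this depth, and may still be open in some nuclei. In such pooled nuclei, fewer nuclei with an open region and a region less open in each nucleus cannot be told apart. Start-site peaks were called in all 17 libraries at 4 of 4 pan-neuronal and 6 of 6 medium spiny neuron markers. Of the glial and endothelial markers, Slc1a3, Mog, Mag, Cx3cr1, Cldn5, Flt1 and Tek had none in any library and Mbp and Aif1 had such a peak in all 17, as did Slc17a7 of the 4 markers of cortical excitatory neurons. The label for estrous stage was missing for library 2 of diestrus females given cocaine, which was grouped by its title.

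A region was separated between 2 groups when every library of one and no library of the other had a peak there, which is a count without a test. Fold enrichment, the height of a summit over its library's background, was compared with limma after quantile normalization at the 36847 regions with a peak in all 17 libraries, and log2 differences are on that normalized scale. Regions are named by the distance of their summit from the annotated 5′ end of the gene.

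Of the 50 regions, 29 had their summit in an intron, 9 lay past the 3′ end and 5 upstream, and the other 7 were exonic. Only 8 came within 1 kb of an annotated start site, and these belonged to Esr1, Esr2, Pgr, Oxtr and Prlr. A peak was present in all 17 libraries at 11 regions, which is 22% of the 50, against 25.0% of all kept regions. The other 39 regions had median fold enrichments of 2.48 to 5.92 in the libraries that called them, and the highest, at Greb1 +53.0 kb, was above several of the 11.

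**Figure D1:**
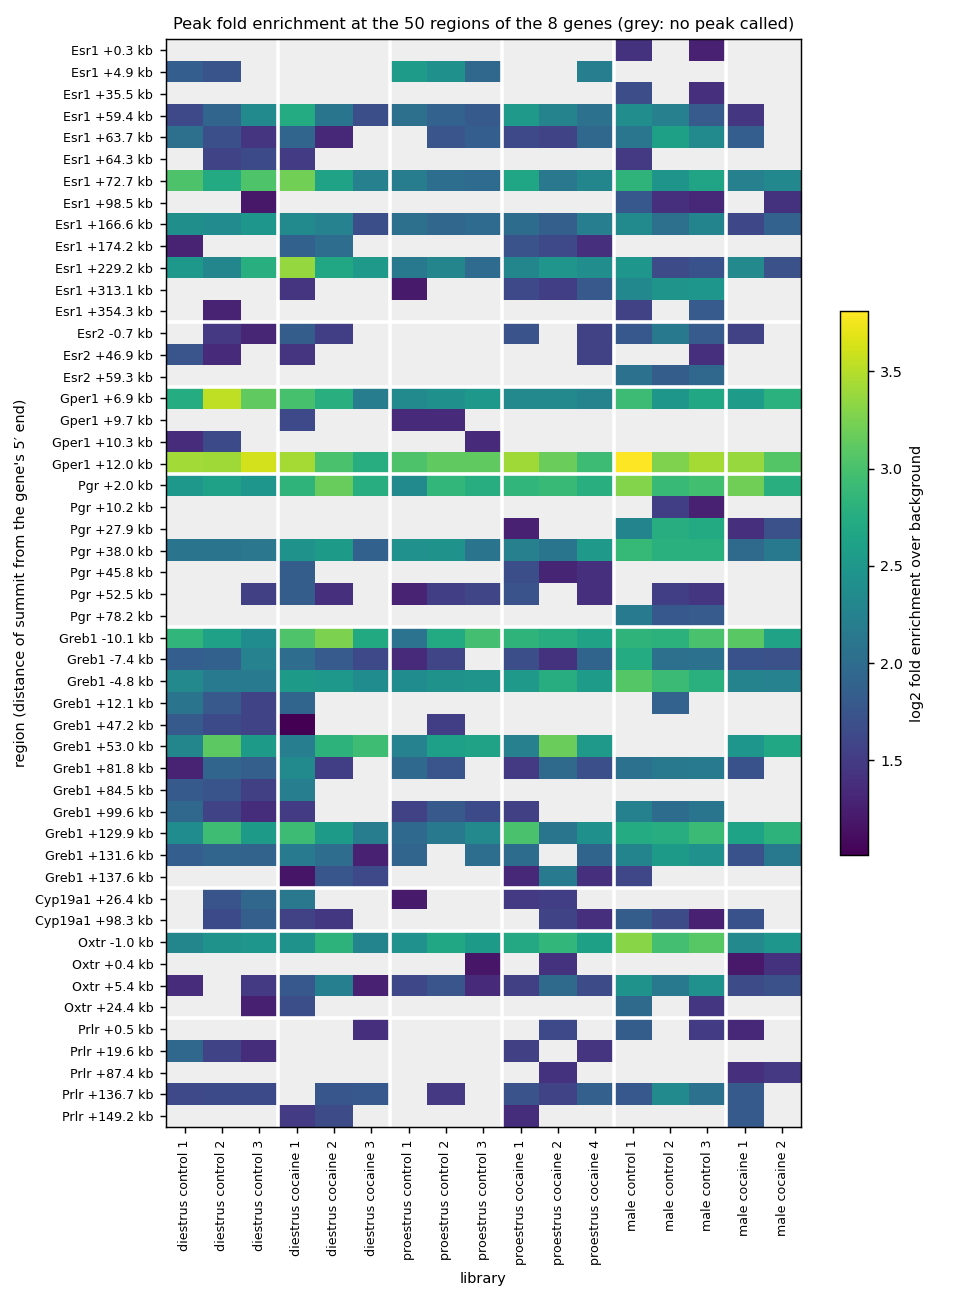
Colour gives the log2 fold enrichment of the strongest peak at each of the 50 regions (rows, ordered by gene and named by distance from the 5′ end in kb) in each of the 17 libraries (columns), and grey means that no peak was called. The 11 fully coloured rows belong to Esr1, Gper1, Pgr, Greb1 and Oxtr, and most other rows are broken within as well as between groups.

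By group mean, control males had the most regions called at these genes, and proestrus controls and males given cocaine had the fewest. The lowest single libraries, with 19 regions, were diestrus cocaine library 3 and male cocaine library 2. Of the 50 regions, 32.0 ± 2.65 were called in control males, 30.0 ± 1.73 in diestrus controls, 28.7 ± 1.53 in proestrus females given cocaine and 26.3 ± 8.08 in diestrus females given cocaine (SD, n = 3 each). Males given cocaine followed with 22.5 ± 4.95 (n = 2) and proestrus controls with 22.3 ± 1.15 (n = 3). Libraries of neighbouring groups in this order overlapped, but the proestrus controls, at 21 to 23, lay below both the diestrus controls, at 28 to 31, and the proestrus females given cocaine, at 27 to 30. As a share of the 50 regions the means were 64, 60, 57.3, 52.7, 45 and 44.7%, beside 68.3, 60.5, 56.9, 54.9, 39.3 and 53.2% of all kept regions in the same groups. The proestrus controls were thus further below their own share of all kept regions than any other group, and no test was run on this sum over genes.

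Gene by gene, the counts in diestrus and proestrus controls did not overlap at Greb1, Esr1, Esr2 and Prlr, where they were higher in diestrus. Of all kept regions, the diestrus controls called 56.0, 61.2 and 64.2% and the proestrus controls 51.6, 51.7 and 56.2%. The share of all genes with such counts was not determined, so the counts per gene are descriptions. Greb1 had 11 of its 12 regions called in each diestrus control and 8, 8 and 6 in the proestrus controls. Esr1 had 7, 8 and 7 of 13 against 6 in each proestrus control, Esr2 had 1, 2 and 1 of 3 against none, and Prlr had 2 of 5 in each against 0, 1 and 0. Counts overlapped between the stages at Gper1, Pgr, Cyp19a1 and Oxtr.

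**Figure D2:**
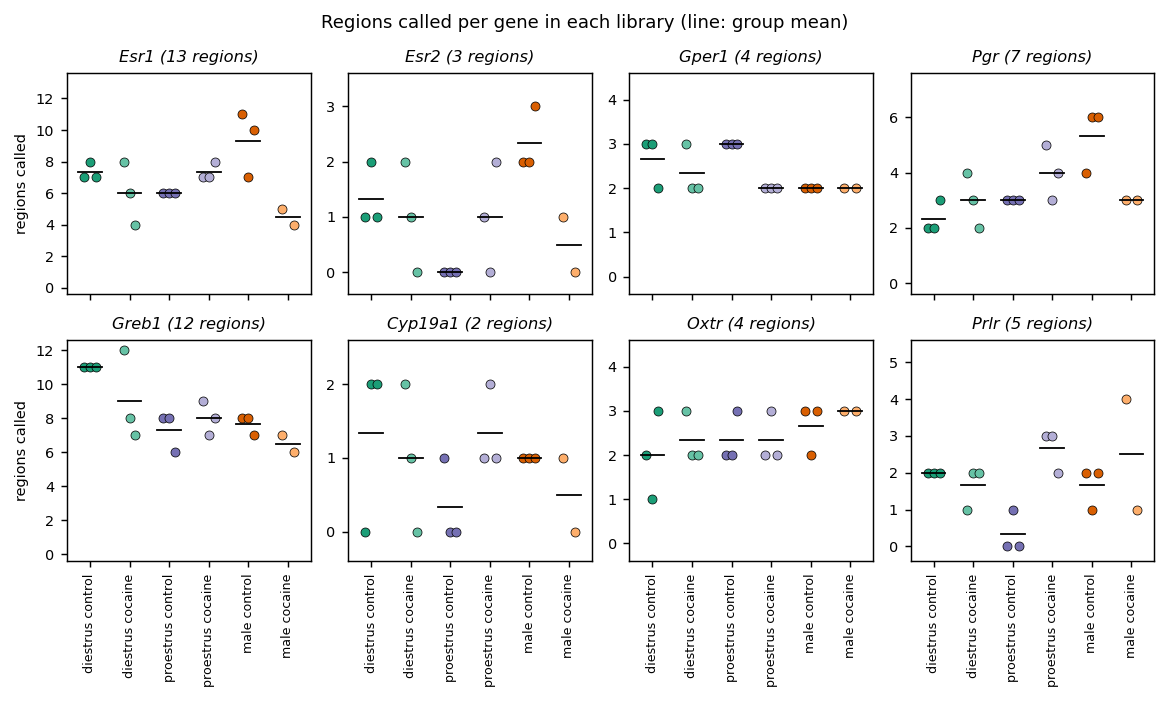
Points are the number of regions called (y axis) in each library of the 6 groups (x axis) for each gene, with the total number of its regions in brackets and a line at the group mean. Greb1 stood at 11 regions in every diestrus control and Esr2 at 0 in every proestrus control. Control males had the highest mean counts for Esr1, Esr2 and Pgr, with libraries that overlapped other groups at each. They also called the most of all kept regions, 68.3% on average.

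Esr1 (ENSMUSG00000019768.16, chr10:4611593-5005614, plus strand) encodes ERα, the main nuclear estrogen receptor. Its annotated start sites were at most weakly open. The region chr10:4611789-4612088, over an exon at the 5′ end of the gene, was called in 2 of 17 libraries, both control males, at fold enrichments of 2.68 in library 1 and 2.41 in library 3. A second start-site region at +98.5 kb, chr10:4709857-4710482, had values of 3.44, 2.62 and 2.52 in the 3 control males, 2.67 in male cocaine library 2 and 2.28 in diestrus control library 3. It was therefore called in 4 of 5 male and 1 of 12 female libraries, near the lowest value that gives a call.

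The strongest peaks of Esr1 lay in its introns. At +72.7 kb (chr10:4683888-4684713) fold enrichment was 8.13, 6.59 and 8.20 in the diestrus controls and 4.54, 4.06 and 3.98 in the proestrus controls. The values were 9.26, 6.16 and 4.71 in diestrus and 6.31, 4.38 and 4.92 in proestrus females given cocaine, and 7.14, 5.51 and 6.26 in control and 4.70 and 4.998 in cocaine-treated males. All diestrus controls were thus above all proestrus controls. The normalized difference was 0.67 on the log2 scale (SE 0.171, limma adjusted p = 0.0496, n = 3 each), a 1.59-fold difference. This call was marginal: it held when diestrus cocaine libraries 1 or 3 or proestrus cocaine libraries 1 or 2 were left out and was lost without any of the other 13 libraries, with adjusted p from 0.0186 to 0.228. It was also lost with median centring in place of quantile normalization (adjusted p = 0.0676, limma). After cocaine the stages differed by 0.22 (adjusted p = 0.895, limma), and the interaction of stage and cocaine did not pass (adjusted p = 0.727, limma). Control males were lower than diestrus controls (difference -0.47, SE 0.171, adjusted p = 0.0394, limma), a call lost without diestrus control libraries 1 or 3 or male control libraries 2 or 3 (adjusted p from 0.0248 to 0.156).

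The +229.2 kb region (chr10:4840325-4841141) had its lowest values in male libraries, both control and cocaine-treated. Its fold enrichments were 5.61, 3.17 and 3.29 in control males, 5.68, 4.91 and 6.85 in diestrus controls and 4.43, 4.87 and 3.98 in proestrus controls. Males given cocaine had 5.03 and 3.25, and females given cocaine had 10.3, 6.41 and 5.74 in diestrus and 4.91, 5.56 and 5.24 in proestrus. Control males and diestrus controls did not overlap after normalization, and control males were lower (difference -0.69, SE 0.194, adjusted p = 0.00956, limma). Leaving out diestrus control library 3 or male control libraries 2 or 3 ended this call, and over all 17 omissions the adjusted p ran from 0.00241 to 0.0715. The difference from proestrus controls, -0.50, had an adjusted p of 0.0749 (limma).

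The weaker Esr1 regions differed in which groups called them. At +174.2 kb (chr10:4785642-4786145) peaks of 3.30, 3.10 and 2.62 appeared in all 3 proestrus females given cocaine and in no proestrus control, with 3.68 in library 1 and 4.03 in library 2 of diestrus females given cocaine, 2.45 in diestrus control library 1 and no call in males. At +313.1 kb (chr10:4924229-4924907) control males had 4.97, 5.51 and 5.60, against no call in males given cocaine or in diestrus controls, and 3.10, 2.89 and 3.46 in proestrus females given cocaine. Diestrus cocaine library 1 (2.73) and proestrus control library 1 (2.32) also had a peak there. Near the 5′ end, at +4.9 kb (chr10:4616341-4616716), the pattern ran the other way: proestrus controls had 5.91, 5.34 and 3.89, 2 of 3 diestrus controls had 3.61 and 3.35, proestrus cocaine library 4 had 4.61, and no diestrus female given cocaine and no male had a peak. That window was 24.4% soft-masked, that is, marked as repeat in the reference.

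Sequences around 3 summits of Esr1 and Pgr are shown because these regions differed between stages or in calls with cocaine and hold an AP-1 element, TGACTCA or its reverse complement, in capitals. AP-1 is bound by dimers of Fos and Jun proteins, which neuronal activity induces.
Esr1 +72.7 kb (chr10:4684232-4684352): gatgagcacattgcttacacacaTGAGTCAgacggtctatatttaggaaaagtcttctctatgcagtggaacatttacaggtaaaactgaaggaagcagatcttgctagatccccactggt
Esr1 +174.2 kb (chr10:4785747-4785867): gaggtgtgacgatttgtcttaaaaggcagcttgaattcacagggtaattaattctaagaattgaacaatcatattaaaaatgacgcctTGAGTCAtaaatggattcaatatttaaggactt
Pgr +45.8 kb (chr9:8945585-8945705): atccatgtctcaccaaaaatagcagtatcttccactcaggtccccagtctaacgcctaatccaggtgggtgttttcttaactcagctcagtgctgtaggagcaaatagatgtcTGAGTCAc
Each is the plus strand of GRCm38 over 60 bases on both sides of the summit. The middle of the element lay 34 bases before, 31 bases after and 56 bases after the summit.

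Esr2 (ENSMUSG00000021055.14, chr12:76120419-76177259, minus strand) encodes ERβ, the second nuclear estrogen receptor. None of its 3 regions was called in a proestrus control. The start-site region at -0.7 kb (chr12:76177738-76178207) had values of 3.44, 4.41 and 3.51 in control males, 2.79 and 2.49 in 2 of 3 diestrus controls, 3.56 in library 1 and 2.89 in library 2 of diestrus and 3.30 in library 1 and 2.93 in library 4 of proestrus females given cocaine, and 2.95 in 1 of 2 males given cocaine. Proestrus controls were thus the only group with no call there. A region 2.51 kb past the 3′ end (+59.3 kb, chr12:76117789-76118282) was called in the 3 control males, at 4.21, 3.58 and 3.84, and in none of the other 14 libraries. Such calls confined to the control males made up 2 of the 50 regions and 4.71% of all kept regions.

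Gper1 (ENSMUSG00000053647.4, chr5:139423151-139427800, plus strand) encodes the membrane estrogen receptor coupled to G proteins. No kept region touched the gene or its start sites. All 4 regions of its window lay past its 3′ end, with summits inside the annotated gene 3110082I17Rik, so that they may belong to either gene. At +6.9 kb (chr5:139429387-139432442) fold enrichment was 6.71, 11.6 and 8.72 in diestrus controls, 7.95, 6.79 and 4.59 in diestrus females given cocaine and 5.07, 5.34 and 5.69 in proestrus controls. After normalization all diestrus controls were above all diestrus females given cocaine (cocaine minus control -0.50, SE 0.164, adjusted p = 0.0399, limma). In males, cocaine-treated libraries had 5.90 and 6.97 and controls 7.65, 5.65 and 6.48, without overlap after normalization and in the other direction (0.45, adjusted p = 0.116, limma), and the difference between these responses was not tested. At +12.03 kb (chr5:139434100-139436103) the values were 10.7, 10.6 and 12.2 without and 10.8, 8.05 and 6.78 with cocaine, again lower with cocaine and without overlap after normalization (-0.46, SE 0.149, adjusted p = 0.0379, limma).

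Both Gper1 calls rested on single libraries and on the setting. With all kept regions in the fit neither passed (adjusted p = 0.0721 at +6.9 kb and 0.0656 at +12.03 kb, limma), and with median centring the second did not (0.0536, limma). Without diestrus cocaine library 2, the library with no stage label, neither passed, and the same held without diestrus control library 3 or diestrus cocaine library 3. The first was lost without diestrus control library 2 and the second without diestrus control library 1, and adjusted p ran from 0.0172 to 0.246 and from 0.0125 to 0.191. Control males at +6.9 kb were below diestrus controls (difference -0.59, SE 0.164, adjusted p = 0.00821, limma), a call lost without diestrus control library 2 or male control library 2 (adjusted p from 0.00302 to 0.0897).

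Pgr (ENSMUSG00000031870.16, chr9:8899833-8968611, plus strand) encodes the progesterone receptor, a classical estrogen target. It had the widest region of all 50, 3301 bp (summit at +2.0 kb, chr9:8899498-8902798), running from its start site into its first coding exon and called in all 17 libraries. Fold enrichment there was 5.68, 6.14 and 5.60 in diestrus controls, 5.07, 7.31 and 6.73 in proestrus controls and 9.82, 7.44 and 7.79 in control males. Females given cocaine had 7.12, 8.93 and 6.78 in diestrus and 7.21, 7.49 and 6.81 in proestrus, whereas males given cocaine had 9.18 and 6.86. No comparison of the promoter passed: the stage difference in controls was -0.32 (SE 0.162, adjusted p = 0.348, limma), and the difference with cocaine in diestrus 0.35 (SE 0.162, adjusted p = 0.137, limma).

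A second Pgr region in all libraries lay in an intron at +38.0 kb (chr9:8937074-8938214). It was the only one of the 50 with a near match to the estrogen response element GGTCANNNTGACC, differing by C12A, where the element's base comes first and positions count from 1 at its 5′ end. The match is in capitals in the plus strand of GRCm38.
Pgr +38.0 kb (chr9:8937776-8937896): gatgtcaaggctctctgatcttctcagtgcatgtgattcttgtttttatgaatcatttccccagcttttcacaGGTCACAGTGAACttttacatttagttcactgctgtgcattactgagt
Fold enrichment was 4.26, 4.24 and 4.36 in diestrus controls, 5.38, 5.45 and 4.27 in proestrus controls and 7.39, 6.89 and 6.92 in control males. Diestrus controls lay below both other control groups after normalization. Control males exceeded them by 0.52 (SE 0.168, adjusted p = 0.0226, limma), a call lost without diestrus control libraries 2 or 3 or male control libraries 2 or 3 (adjusted p from 0.0158 to 0.0646). The stage difference, -0.41, did not pass (adjusted p = 0.225, limma).

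Further regions of Pgr differed in the groups that called them, though none passed Fisher's exact test for sex or cocaine after adjustment. At +27.9 kb (chr9:8927486-8928105) control males had 4.84, 6.75 and 6.59, males given cocaine had 2.62 and 3.25, and of the females only proestrus cocaine library 1 had a peak, of 2.40. Called in 5 of 5 male and 1 of 12 female libraries, it had the smallest unadjusted p of the 50 regions by sex. That p was 0.00097 (Fisher's exact test, two-sided) and came to 0.173 after Benjamini-Hochberg adjustment. Only the male groups brought this region past the filter for calls, so the p gives no support for a sex difference. At +45.8 kb (chr9:8945478-8945821) the 3 proestrus females given cocaine had 3.20, 2.46 and 2.62, diestrus cocaine library 1 had 3.56, and no control and no male library had a peak. A region 9.46 kb past the 3′ end (+78.2 kb, chr9:8977723-8978304) was called in the control males, at 4.46, 3.44 and 3.51, and nowhere else. This pattern was shared by 4.71% of all kept regions.

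Greb1 (ENSMUSG00000036523.16, chr12:16670615-16800886, minus strand), an early target gene and cofactor of ERα, had no kept region within 1 kb of its 12 annotated start sites. Its 12 regions were spread from 10.1 kb upstream to 7.31 kb past the 3′ end, and the one at -10.1 kb covered the start of the neighbouring gene E2f6. Diestrus controls had the most Greb1 peaks. At +84.5 kb (chr12:16716090-16716594) they had 3.49, 3.35 and 2.91 and at +12.1 kb (chr12:16788609-16789029) 4.26, 3.46 and 3.01, and no proestrus library, control or cocaine, had a peak at either. Outside the diestrus controls, calls came from diestrus cocaine library 1, at 4.63 and 3.80, and at +12.1 kb from male control library 2, at 3.72. At +47.2 kb (chr12:16753258-16753759) diestrus controls had 3.49, 3.13 and 3.01, 1 diestrus female given cocaine had 2.02, 1 proestrus control had 2.90, and no male had a peak.

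The region 7.31 kb past the 3′ end of Greb1 (+137.6 kb, chr12:16662923-16663672) was called with cocaine in both stages. Diestrus females given cocaine had 2.26, 3.40 and 3.10, proestrus females given cocaine had 2.50, 4.49 and 2.62, and none of the 6 female controls had a peak. In males the direction did not hold, with 3.06 in control library 1 and no call in the other 4. The pattern of 6 of 6 against 0 of 6 females was shared by 298 of all kept regions, or 0.202%. Over all 17 libraries, 6 of 8 cocaine and 1 of 9 control libraries had the peak (p = 0.0152, Fisher's exact test, two-sided, and 0.450 after Benjamini-Hochberg adjustment). Only the female cocaine groups brought this region past the filter for calls, so the p gives no support for a response to cocaine. The summits were low, 18 to 41 reads in the female libraries.

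A Greb1 region called with cocaine in females and one called in diestrus but not proestrus controls are printed so that they can be set beside the values, with an AP-1 element in capitals in the second.
Greb1 +137.6 kb (chr12:16663247-16663367): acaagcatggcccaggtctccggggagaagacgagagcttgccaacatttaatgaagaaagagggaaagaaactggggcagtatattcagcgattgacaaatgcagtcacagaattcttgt
Greb1 +12.1 kb (chr12:16788699-16788819): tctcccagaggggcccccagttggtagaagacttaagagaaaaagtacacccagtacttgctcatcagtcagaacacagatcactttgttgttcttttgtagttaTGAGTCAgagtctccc
No other searched element lay within 100 bases of these summits. They are plus-strand sequence of GRCm38, and Greb1 is read from the minus strand.

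One intronic Greb1 region was strong in every library but those of control males. At +53.0 kb (chr12:16747695-16748063) fold enrichment was 4.91, 8.60 and 5.81 in diestrus controls, 4.75, 6.03 and 6.16 in proestrus controls, 4.63, 7.04 and 7.70 and 4.71, 8.98 and 5.76 in the females given cocaine, and 5.58 and 6.39 in males given cocaine. The 3 control males had no call. The window within 100 bases of its summit was 51.7% soft-masked, the only one of the 50 above 50%. Of the 7787 kept regions above 50%, 36.5% were called in no control male, beside 19.5% of all kept regions, and 10 were called in all 12 female libraries and no control male, beside 105 of all. These 7787 were called less often than all kept regions in every library, not in control males alone. Control males called 46.1, 42.3 and 50.3% of them, beside 69.6, 64.6 and 70.7% of all. Males given cocaine called 20.8 and 18.2%, beside 42.0 and 36.6%. Reads from other copies of a repeat cannot be told apart from reads of this site, and the counting of such reads is not given in the sources used here.

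The last Greb1 regions to be described differed in control males from males given cocaine or from diestrus controls. At +99.6 kb (chr12:16701088-16701544) control males had 4.72, 3.99 and 4.28, males given cocaine had no call, and all 6 female controls had peaks, of 3.87, 3.01 and 2.59 in diestrus and 2.96, 3.48 and 3.13 in proestrus. With 9 of 9 control and 2 of 8 cocaine libraries called, this region had the smallest unadjusted p of the 50 for cocaine. That p was 0.00226 (Fisher's exact test, two-sided) and came to 0.351 after Benjamini-Hochberg adjustment. Only the control groups brought the region past the filter for calls, so this p too gives no support. At -4.8 kb (chr12:16805186-16806146), called in all libraries, control males had 8.41, 7.57 and 6.92 against 5.03, 4.47 and 4.46 in diestrus controls, higher by 0.51 after normalization (SE 0.158, adjusted p = 0.0171, limma). That call was lost without diestrus control libraries 2 or 3 or male control libraries 1 or 2 (adjusted p from 0.0107 to 0.0710).

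**Figure D3:**
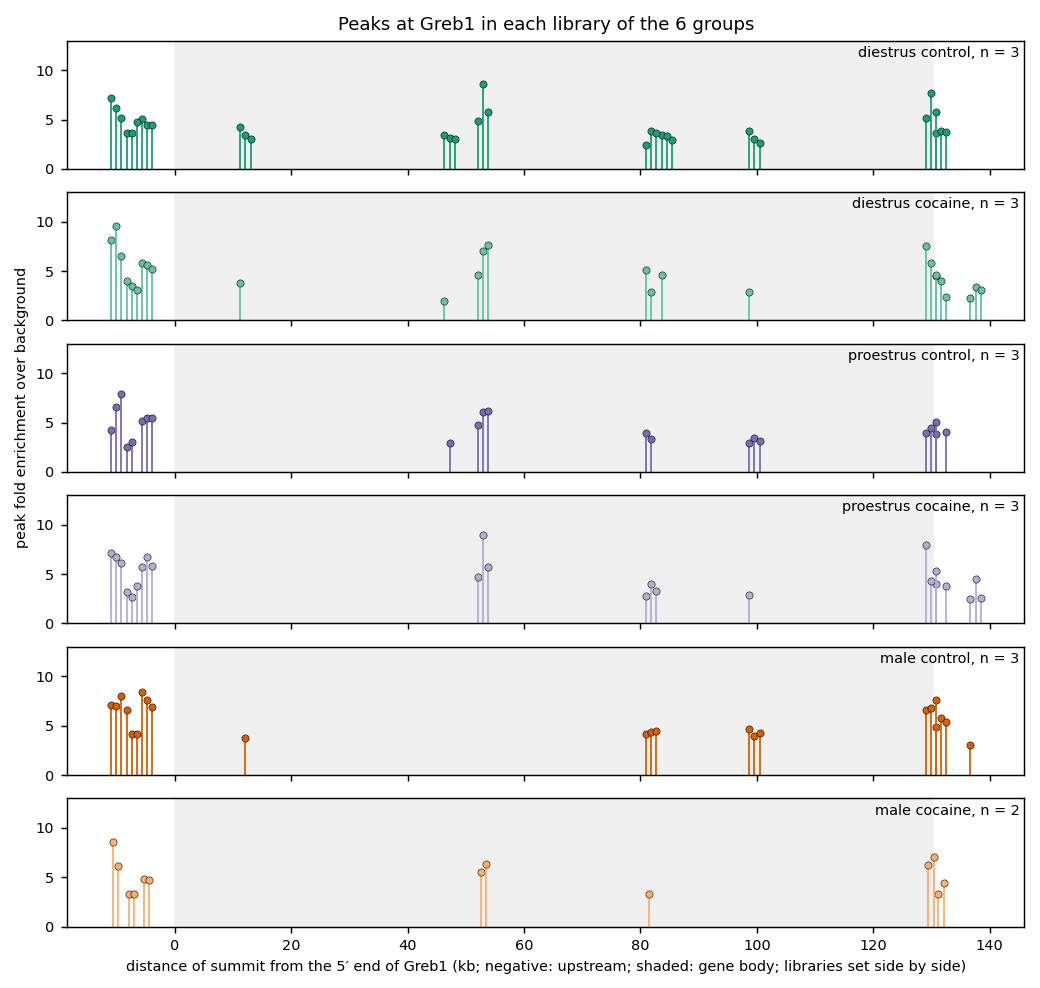
Each panel is 1 group, and each stem is the fold enrichment over background (y axis) of a Greb1 peak in 1 library, placed by its distance from the 5′ end in kb (x axis) and drawn side by side for the 2 or 3 libraries, with the gene body shaded. The stems at +53.0 kb are missing in control males only, and those at +137.6 kb are present in all female cocaine libraries and no female control.

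Cyp19a1 (ENSMUSG00000032274.9, chr9:54165937-54268110, minus strand) encodes aromatase, which makes estradiol from testosterone. It had 2 weak intronic regions and none at its 5 start sites. At +98.3 kb (chr9:54169512-54169936) control males had 3.57, 3.17 and 2.41, 2 libraries each of diestrus controls, diestrus females given cocaine and proestrus females given cocaine had peaks of 2.62 to 3.63, male cocaine library 1 had 3.28, and no proestrus control had one. At +26.4 kb (chr9:54241465-54241892) 6 of 12 female and 0 of 5 male libraries had a peak, of 2.32 to 4.39.

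Oxtr (ENSMUSG00000049112.9, chr6:112473683-112489943, minus strand) encodes the oxytocin receptor. Its main region lay upstream at -1.0 kb, 623 bp from a start site (chr6:112490566-112491541), and was called in all 17 libraries. Fold enrichment was highest in control males, at 9.94, 7.85 and 8.45, against 4.91, 5.47 and 5.60 in diestrus and 5.38, 6.38 and 5.78 in proestrus controls. Females given cocaine had 5.46, 7.04 and 4.82 in diestrus and 6.51, 7.27 and 6.07 in proestrus, whereas males given cocaine had 5.03 and 5.58. Control males and diestrus controls did not overlap and differed by 0.52 (SE 0.158, adjusted p = 0.0152, limma), a call lost without male control library 1 only (adjusted p from 0.00785 to 0.0606). The stage difference in controls, -0.34, and the difference between control males and proestrus controls, 0.18, did not pass (adjusted p = 0.298 and 0.454, limma). Its summit sequence is shown because this upstream region differed between control males and diestrus controls, and it held none of the searched elements.
Oxtr -1.0 kb (chr6:112490931-112491051): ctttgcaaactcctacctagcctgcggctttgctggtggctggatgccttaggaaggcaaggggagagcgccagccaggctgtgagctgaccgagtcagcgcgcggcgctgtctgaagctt
A weak second start-site region in the coding exon at +0.4 kb (chr6:112489402-112489818) had 2.30 and 2.67 in the 2 males given cocaine, 2.27 and 2.67 in 1 proestrus control and 1 proestrus female given cocaine, and no call in control males.

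Prlr (ENSMUSG00000005268.20, chr15:10177238-10349180, plus strand) encodes the prolactin receptor, which signals through Jak2 and Stat5. At +19.6 kb (chr15:10196555-10196996) all 3 diestrus controls had a peak, of 3.87, 3.01 and 2.59, whereas no diestrus female given cocaine, no proestrus control and no male had one, and 2 proestrus females given cocaine had 2.90 and 2.72. It was the only one of the 50 regions with the element GNACANNNTGTNC, bound by progesterone and glucocorticoid receptors, here in capitals.
Prlr +19.6 kb (chr15:10196759-10196879): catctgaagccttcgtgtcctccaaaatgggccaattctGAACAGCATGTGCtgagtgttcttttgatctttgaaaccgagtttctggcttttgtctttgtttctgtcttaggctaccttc
Of its start-site regions, the one at +0.5 kb (chr15:10177366-10178160) was called in 5 libraries, at 2.51 to 3.57, and that at +136.7 kb (chr15:10313727-10314195) in 13, at 2.78 to 5.10, including all 3 diestrus controls (3.10, 3.13 and 3.11) and 1 proestrus control (2.78). At +87.4 kb (chr15:10264380-10264782) the males given cocaine had 2.62 and 2.79, proestrus cocaine library 2 had 2.67, and no control had a peak.

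The first question of the design was whether estrous stage alters accessibility. In controls, 3 of the 50 regions were called only in diestrus, at Greb1 and Prlr, which is 6% beside 3.96% of all kept regions, and 0 only in proestrus, beside 0.792%. The number only in diestrus was 6 without diestrus control library 1, 5 without proestrus control library 2 and 1 when each library was cut to its strongest peaks, as many as the smallest library held. The number only in proestrus was 1 without diestrus control library 3 or proestrus control library 3. After cocaine, no region was called only in diestrus (0.245% of all) or only in proestrus (0.517%), though 2 were only in proestrus without diestrus cocaine library 1 and 1 without proestrus cocaine library 2. Over both treatments, 6 libraries a stage, 0 of 26 member regions tested passed Fisher's exact test with Benjamini-Hochberg adjustment, nor did any region (0%), and none had an unadjusted p under 0.05. The smallest p this design can give is 0.00216, before adjustment over 77817 regions.

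By fold enrichment, 1 of the 11 member regions tested differed between stages in controls (limma, adjusted p under 0.05), beside 0.727% of all regions tested. It was Esr1 +72.7 kb, and 5 of the 11 had an unadjusted p under 0.05, beside 15.4% of all. The median difference over the 11 was 0.19, and over all regions -0.01. After cocaine 0 of 11 passed (0% of all), with 1 of 11 under an unadjusted p of 0.05 (6.08% of all), and for the interaction of stage and cocaine 0 of 11 (0.00271% of all), also with 1 under an unadjusted 0.05 (7.005% of all).

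The second question was the response to cocaine in each stage and in males. In diestrus, 1 region (Greb1 +137.6 kb) was called only with cocaine, beside 1.16% of all kept regions, and 1 (Prlr +19.6 kb) only without, beside 1.26%, both also without library 2. Without diestrus cocaine library 1 the regions called only in controls rose to 5, and they were 3 without diestrus control library 3, while those called only with cocaine were 2 without diestrus cocaine library 3. In proestrus, 3 regions were called only with cocaine (Esr1 +174.2 kb, Pgr +45.8 kb and Greb1 +137.6 kb), beside 2.45%, and 0 only without, beside 1.64%. The first count was 5 without proestrus cocaine library 2, and the second was 1 without proestrus control library 3 or proestrus cocaine libraries 1 or 4. These summits were weak, and with peaks of a -log10 q of at least 5 alone, 1 region was called only with cocaine in proestrus and 0 in diestrus.

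In males, 3 regions were called only with cocaine (Greb1 +53.0 kb, Oxtr +0.4 kb and Prlr +87.4 kb), beside 1.66% of all kept regions. Another 4 were called only without cocaine, at Esr1 +313.1 kb, Esr2 +59.3 kb, Pgr +78.2 kb and Greb1 +99.6 kb, beside 16.8% of all. The males given cocaine had the fewest peaks of all groups, and their part in these losses was not tested. The count of losses was 8 without male control library 2 and 10 without male cocaine library 1. Over all libraries, 0 of 36 member regions passed for cocaine (Fisher's exact test, Benjamini-Hochberg, 0% of all regions), and 5 had an unadjusted p under 0.05, beside 8.05% of all.

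By fold enrichment, cocaine altered 2 of 11 member regions in diestrus, both lower and both at Gper1 (limma, adjusted p under 0.05), beside 13.3% of all regions tested. The number was 0 without diestrus control library 3 or diestrus cocaine libraries 2 or 3, 1 without diestrus control libraries 1 or 2 and 3 without diestrus cocaine library 1. Cocaine altered 0 of 11 in proestrus (5.05% of all) and 0 of 11 in males (8.62% of all), where 0 and 4 had an unadjusted p under 0.05, beside 24.1% and 24.9% of all. Median differences over the 11 were 0.08, 0.07 and 0.13, beside 0.00, 0.00 and 0.01 over all regions. Whether the response differed between stages was tested by the interaction above, and between the sexes it was not tested.

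**Figure D4:**
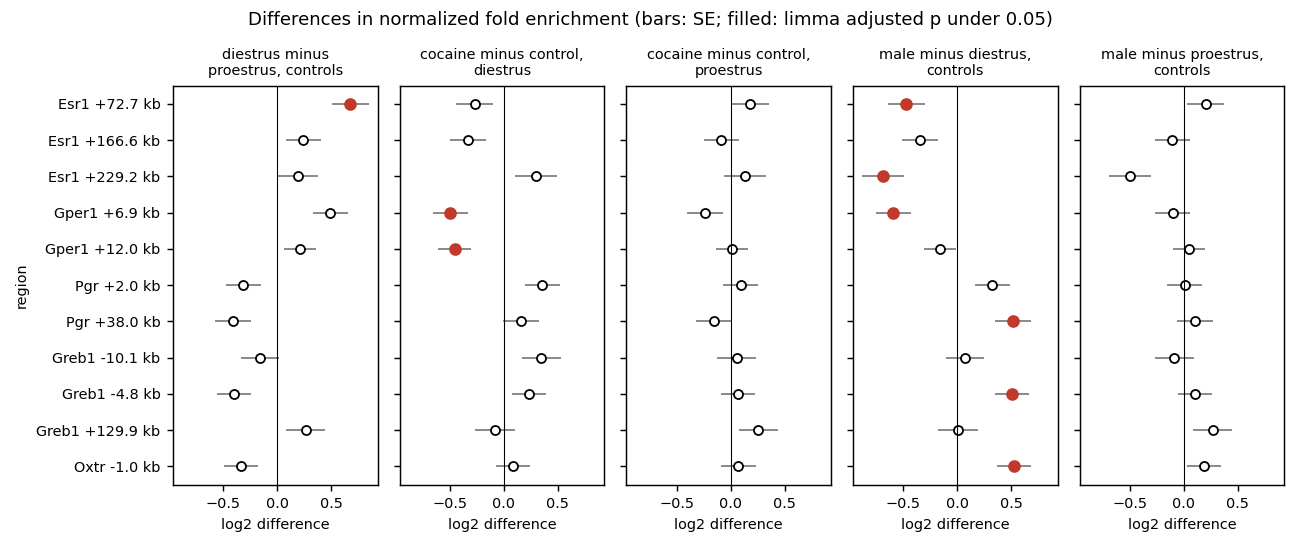
Points give the log2 difference in normalized fold enrichment (x axis, bars SE) of the 11 regions with a peak in all libraries (y axis), in 5 comparisons of 3 libraries a group, filled where the limma adjusted p was under 0.05. Control males and diestrus controls differed at 6 of the 11 regions in both directions, whereas none passed between control males and proestrus controls or with cocaine in proestrus.

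The third question was the difference between the sexes in controls. Against diestrus controls, 4 regions were called only in males (Esr1 +313.1 kb, Esr2 +59.3 kb, and Pgr +27.9 and +78.2 kb), beside 9.05% of all kept regions, and 4 only in diestrus (Greb1 +47.2, +53.0 and +84.5 kb and Prlr +19.6 kb), beside 3.02%. Against proestrus controls, 6 were called only in males (Esr1 +98.5 kb, Esr2 -0.7 and +59.3 kb, Pgr +27.9 and +78.2 kb and Cyp19a1 +98.3 kb), beside 10.5%, and 2 only in proestrus (Esr1 +4.9 kb and Greb1 +53.0 kb), beside 1.42%. Both comparisons share the control males, and the first counts became 7 and 11 without male control library 2. Over all libraries, 0 of 36 member regions passed for sex (Fisher's exact test, Benjamini-Hochberg, 0% of all regions), with 5 under an unadjusted p of 0.05, beside 10.8% of all.

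By fold enrichment, 6 of 11 member regions differed between control males and diestrus controls (limma, adjusted p under 0.05), beside 25.2% of all regions tested. Higher in males were Pgr +38.0 kb, Greb1 -4.8 kb and Oxtr -1.0 kb, and lower were Esr1 +72.7 and +229.2 kb and Gper1 +6.9 kb. Between 1 and 6 passed when a library was left out, with 3 without diestrus control library 2, 2 without diestrus control library 3, 1 without male control library 2 and 3 without male control library 3. Between control males and proestrus controls 0 of 11 passed, beside 15.1% of all, with 1 under an unadjusted p of 0.05 (30.2% of all), and 1 passed without male control library 1.

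**Figure D5:**
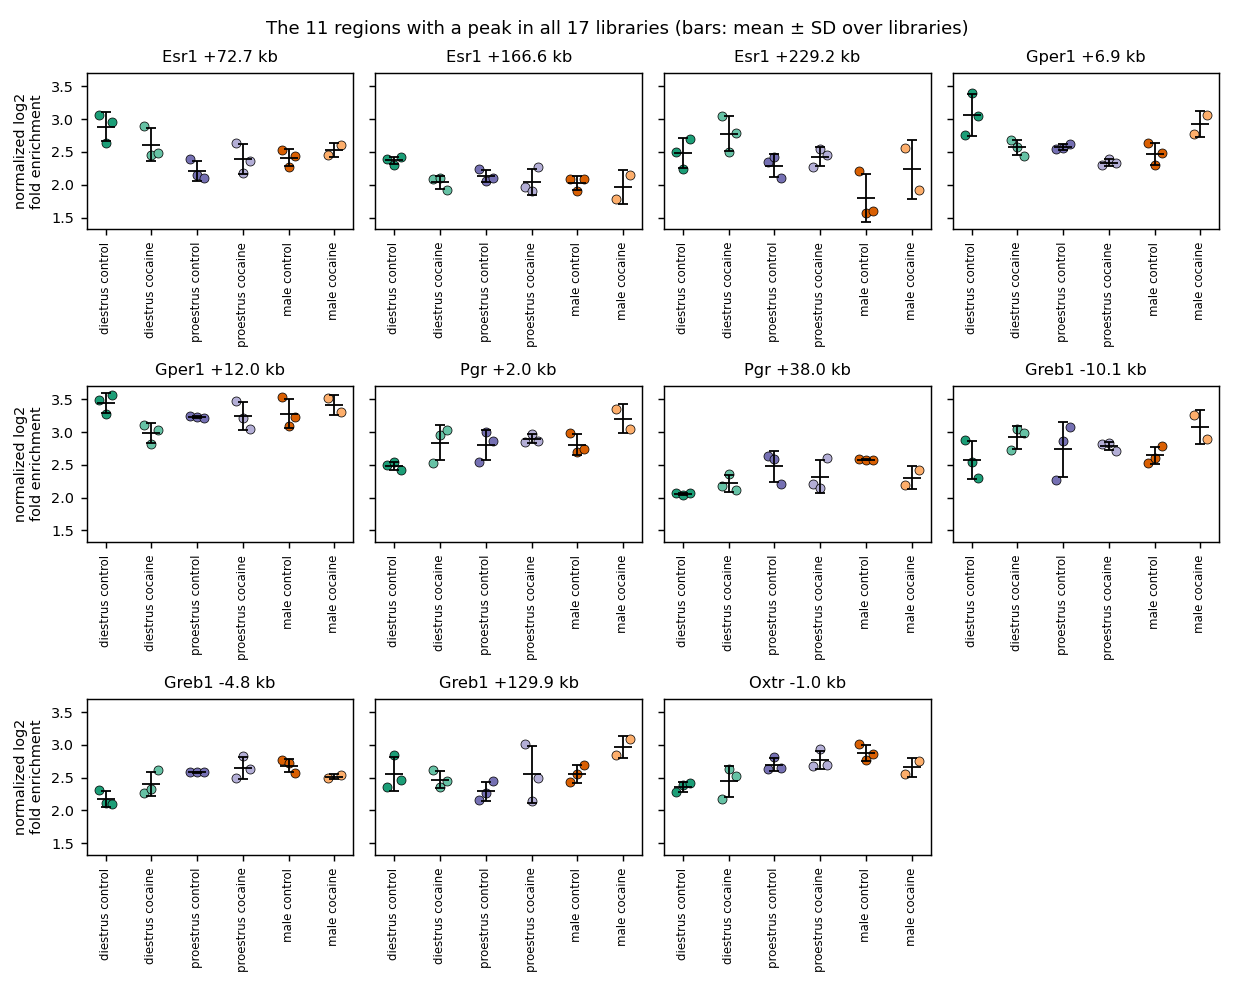
Points are normalized log2 fold enrichments (y axis) of the 11 regions with a peak in all 17 libraries, by group (x axis), with bars for the mean ± SD over the 2 or 3 libraries of a group. At Pgr +38.0 kb, Greb1 -4.8 kb and Oxtr -1.0 kb the diestrus controls lie below control males and proestrus controls, and at Esr1 +72.7 kb above both.

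Sequence elements were searched on both strands within 100 bases of each summit. An exact estrogen response element was found in 0 of 50 regions (0.0142% of all kept regions), one with at most 1 mismatch in 1 (0.353%), the progesterone and glucocorticoid element in 1 (0.512%) and the cAMP response element TGACGTCA in 0 (0.498%). The AP-1 element was found in 10 of 50 regions, 20% beside 10.1% of all. Esr1 held 5 of the 10, in 13 regions, Pgr 2 and Greb1, Oxtr and Prlr 1 each, and Esr2, Gper1 and Cyp19a1 none. Of the regions called only with cocaine, 2 of 3 held it in proestrus, 0 of 1 in diestrus and 0 of 3 in males. Of those called only without cocaine, 1 of 4 held it in males and 0 of 1 in diestrus. Among regions called in diestrus but not proestrus controls, 1 of 3 held it. The share over all regions called in these ways was not determined, so a link of the element to cocaine was not tested.

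The start-site region of Pgr varied over the 17 libraries most like that shared by Pphln1 and Zcrb1 (Pearson's r = 0.93) and that of Elavl1 (0.87), among 12346 protein-coding genes. The Oxtr region varied most like those of Chmp7 (0.87) and of Psma4 and AY074887, which share one (0.85). These are descriptions over libraries that also share depth and group.

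Of 46 other genes of these pathways, 26 had a start-site peak in every library and 13 in none, among the latter the ligand genes Oxt and Prl. Of their 368 regions, 13 (3.53%) were called only in diestrus controls, beside 3.96% of all kept regions. Another 2 (0.543%) were called only in proestrus controls, beside 0.792%, and 96 had a peak in all libraries. By limma, 0.727% of all regions tested differed between the stages in controls. Of the 96, 0 were higher and 2 (2.08%) lower in diestrus than in proestrus controls. One was a start-site region of the receptor coactivator Ncoa1 (-1.25, adjusted p = 0.0473), which was also lower with cocaine in proestrus (-1.68, adjusted p = 0.00475) and in control males than in proestrus controls (-1.24, adjusted p = 0.00731). Between the stages in controls, start-site regions of the corepressor Ncor1 and the membrane progestin receptor Paqr8 were called only in diestrus. This Paqr8 region was also called in every control male.

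With cocaine in diestrus, 4 of the 96 pathway regions were higher and 13 lower (limma, 17.7%), in proestrus 2 and 2 (4.17%) and in males 6 and 4 (10.4%). Of all regions tested, 13.3, 5.05 and 8.62% passed in the same comparisons. Start-site regions higher with cocaine in diestrus were those of the coregulators Nrip1 (0.61, adjusted p = 0.00711) and Ncoa2 (0.40, adjusted p = 0.0112) and of Pgrmc2 (0.32, adjusted p = 0.0172), a progesterone-binding membrane protein. Those of the orphan receptor Esrra (-0.38, adjusted p = 0.0376) and the kisspeptin receptor Kiss1r (-0.42, adjusted p = 0.0171) were lower. Both were wide merged regions, chr19:6918201-6926673 and chr10:79906599-79922178. The value of a region is that of its strongest peak, which may lie away from the named start site and belong to another gene. In males, Ncoa3, Pelp1 and Stat5b were higher with cocaine, by 0.56 to 0.65, and Ncoa2, Paqr8 and Srd5a1, which reduces progesterone and testosterone, were lower, at -0.73, -0.57 and -0.49 (limma, adjusted p from 0.00207 to 0.0435). A further start-site region of Ncoa2 was called in diestrus females given cocaine but in no diestrus control and no proestrus female given cocaine. One of Hsd17b1, an estradiol-producing enzyme, was called only in proestrus controls beside proestrus females given cocaine, and one of Ncor1 in males only with cocaine. Start-site regions of Esrrb, Esrrg, Ncoa3, Pgrmc1 and Paqr8 were called in males only without it.

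Control males differed from diestrus controls at 11 higher and 18 lower of the 96 pathway regions (limma, 30.2%), and from proestrus controls at 7 and 11 (18.8%). The shares over all regions tested were 25.2 and 15.1%. Start-site regions of Paqr8, Srd5a1 and Hsd17b12, which makes estradiol from estrone, were higher in control males than in either stage, and that of Paqr6 was lower than in either. Higher than in diestrus alone were Ncoa2, Nrip1, Pgrmc2 and Socs2, an inhibitor of cytokine receptors, and lower were the wide regions at Esrra and Kiss1r. Against proestrus alone another region of Ncoa2 was higher and Ncoa1, Ncoa3, Pelp1 and Stat5b were lower. Start-site regions of Esrrg and Paqr8 were called in control males and in neither control stage, and another of Paqr8 in control males but not proestrus controls. Against control males, those of Ncoa1 and Ncor1 were called only in diestrus controls and that of Hsd17b1 only in proestrus controls.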

How the data were processed

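ATAC-seq peaks of 17 libraries were analysed as deposited. The authors trimmed adapters, mapped reads with BWA-MEM (build mm10), and peaks were called per library by MACS2. Versions, peak caller options and the handling of reads with several matches are not given in the sources used here. Each deposited peak gives a fold enrichment (a ratio of summit pileup to background), −log10 p and q values and a score, all computed by the authors within a library. The 8 genes, the 46 pathway genes and the tests were chosen with earlier results of these data known.

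The fold enrichments were whole multiples of 1 step per library (100% within 0.01), from which pileups in reads were recovered. Overlapping peaks of the autosomes and X were merged into regions. Annotation was GENCODE vM21 and sequence GRCm38.p6, the build of mm10. Regions were kept when called in 2 libraries of 1 group. Fisher's exact test used regions with at least 2 calls and 2 missing calls, with Benjamini-Hochberg adjustment. Quantile-normalized log2 fold enrichments were fitted with limma 3.58.1 (R 4.3.3; trend and robust) over all 6 groups. In simulated data for stage in controls (36847 regions), 15% of changes of 0.5 and 69% of changes of 1 on the log2 scale were recovered, with 3 other calls.

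Named regions were those within 1 kb of a start site of their gene, separated between groups, past an adjusted p of 0.05 or holding an exact estrogen response element. Cyp19a1 +26.4 kb, the second of its gene's 2 regions, was added after its values were seen. Pathway genes were named where a start-site region was separated or passed. Alternatives were a stricter q, equal numbers of peaks, peaks covering 50% of the region, all merged regions, gene bodies alone, median centring, all kept regions, a replicate block and leaving out each library. Sequences that touch untranslated exons are not printed. A few items of the lists and sequences are not reported here.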

Additional observations from a re-analysis of the deposited data

How the results depend on the processing

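A missing call means little at this depth, since the weakest called summits held 15 to 20 reads, and fold enrichment was tested only where every library had a peak. With 2 or 3 pools a group, separated regions are counts without a test. Without 1 of the 2 libraries of males given cocaine, the remaining one was taken to vary like the other groups. No direction reversed, and Fisher's exact test passed 0 member regions under every alternative.

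Counts of separated member regions were the same with all merged regions. With peaks of a -log10 q of at least 5, regions called only with cocaine were 0 in diestrus, 1 in proestrus and 1 in males, and 2 were called only in diestrus controls against males. With equal numbers of strongest peaks, 1 was called only in diestrus controls against proestrus, 1 only in proestrus after cocaine, 0 only with cocaine in diestrus, 2 only in diestrus controls against males and 3 only in males against proestrus. With peaks covering 50% of the region, the stage counts in controls were 5 and 1, and those of cocaine in diestrus 2 and 2. In gene bodies alone, 0 were called only with cocaine in diestrus, 2 only without it in males, and 2 and 3 only in males against diestrus and proestrus controls.

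By limma, median centring gave 0 member regions for stage in controls, 1 for cocaine in diestrus and 1 for males against proestrus controls. With all kept regions, a missing call set to the library's lowest value, 4 of 50 passed for stage in controls (4.88% of all regions), 1 for cocaine in proestrus (3.65%), 7 for cocaine in males (14.97%) and 18 and 7 for males against diestrus and proestrus controls (23.7 and 22.2%), and missing calls then enter as values. For cocaine in diestrus 2 passed (4.37% of all), Greb1 +47.2 kb and Prlr +19.6 kb in place of the Gper1 regions. The first was kept only through the diestrus controls, and at the second every value with cocaine in diestrus was a filled-in one. Several regions behind the other counts with all kept regions were likewise kept only through the group where they were higher. These counts therefore give no support for a difference. In gene bodies alone 0 passed for cocaine in diestrus and 3 for males against diestrus controls.

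Leaving out 1 library at a time gave 3 to 6 regions only in diestrus and 0 to 1 only in proestrus controls, and 0 to 2 only in proestrus after cocaine. For cocaine, it gave 1 to 2 gained and 1 to 5 lost in diestrus, 3 to 5 and 0 to 1 in proestrus, and 3 to 4 and 4 to 10 in males. Against diestrus controls 4 to 7 were only in males and 4 to 6 only in diestrus, and against proestrus controls 6 to 11 and 2 to 3. By limma, 0 to 1 passed for stage in controls, 0 to 3 for cocaine in diestrus, 1 to 6 for males against diestrus and 0 to 1 for males against proestrus controls. For same-numbered female libraries, deviations from the group means had Pearson's r from -0.23 to 0.28 (15 pairs, 3 over 0.1). Pairs with a male library or of different numbers are not given. A replicate block left the member counts at 1 for stage in controls, 2 for cocaine in diestrus, 6 for males against diestrus controls and 0 elsewhere, while the calls over all regions for cocaine in proestrus went from 1862 to 482. The causes of these shifts were not tested.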
